A study of Mus musculus with 4 samples.

Results

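The 10 genes described here carry cells through G1, the phase before DNA replication: the D-type cyclins Ccnd1, Ccnd2 and Ccnd3, the E-type cyclins Ccne1 and Ccne2, the kinases Cdk2, Cdk4 and Cdk6, and the inhibitors Cdkn1a (p21) and Cdkn1b (p27). Their probe sets, each a group of short probes for 1 transcript, were taken wherever the platform annotation named exactly 1 gene and that gene was one of the 10. This gave 28 of 45037 non-control probe sets and 10 of the 18193 genes on the array. RNA came from neuroepithelial cells, the dividing precursors of the embryonic forebrain, taken from the telencephalon of ICR mice. On 2 arrays the cells were from embryonic day 11.5 and had spent 1 day in culture, and on the other 2 they were from embryonic day 14.5 and had spent 4 days. Both groups grew on dishes coated with polyornithine and fibronectin, in medium with 10 ng/ml basic FGF, a mitogen for these precursors. Age and time in culture therefore changed together and cannot be told apart, and nothing in the labels says that replicate arrays came from separate cultures or litters.

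As background, D-type cyclins are made in response to mitogens and activate Cdk4 and Cdk6, which begin the phosphorylation of the retinoblastoma protein Rb1. E2F factors released from Rb then raise transcription of Ccne1 and Ccne2, whose products activate Cdk2 and start replication. The inhibitors p21 and p27 bind cyclin-Cdk complexes and restrain Cdk2, p21 being a transcriptional target of p53 and p27 being controlled to a large part by protein degradation. In the embryonic forebrain, G1 lengthens as neurogenesis proceeds, and high D- and E-type cyclin levels are known to favour further divisions of progenitors.

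In these arrays the cyclins and p21 were lower in the E14.5 cultures, while Cdk4, Cdk6 and p27 did not pass the test. Of the 25 probe sets bright enough to test, 15 were lower in the older cultures, 10 did not pass and none was higher, in a limma fit over all probe sets with Benjamini-Hochberg adjustment and a threshold of 0.05. Among all 27022 probe sets tested, 23.7% passed, 12.6% as lower and 11.1% as higher. Counted once per gene by the brightest tested probe set, 7 of the 10 genes were lower (Ccnd1, Ccnd2, Ccnd3, Ccne1, Ccne2, Cdk2 and Cdkn1a) and none was higher. Over 12952 genes 27.8% passed, 13.6% as lower and 14.3% as higher. The median log2 difference of the 10 genes was -0.71, against 0.03 for all genes. Both E14.5 arrays lay below both E11.5 arrays at 19 of the 25 probe sets and above them at 3, while over all tested probe sets these patterns held for 31.9% and 30.1%. Leaving out 1 array at a time gave 11 to 15 lower probe sets and 5 to 7 lower genes, with the fewest probe sets without E14.5 replicate 2. Without the variance trend 6 probe sets and 2 genes were lower, and with no filter on dim probe sets 9 and 3. Of the 25 tested probe sets, 2 reached the filter level at E11.5 only, so they could be tested only because they were brighter there: 1421679_a_at of Cdkn1a, which is 1 of the 15, and 1444323_at of Ccnd3. Within the ages, 20 of the 25 probe sets read lower on E14.5 replicate 2 than on replicate 1 (47.6% of all tested probe sets did), and 21 read lower on E11.5 replicate 2 than on replicate 1 (49.4% of all). One probe set, 1419497_at of Cdkn1b, passed as higher without E11.5 replicate 1.

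**Figure D1:**
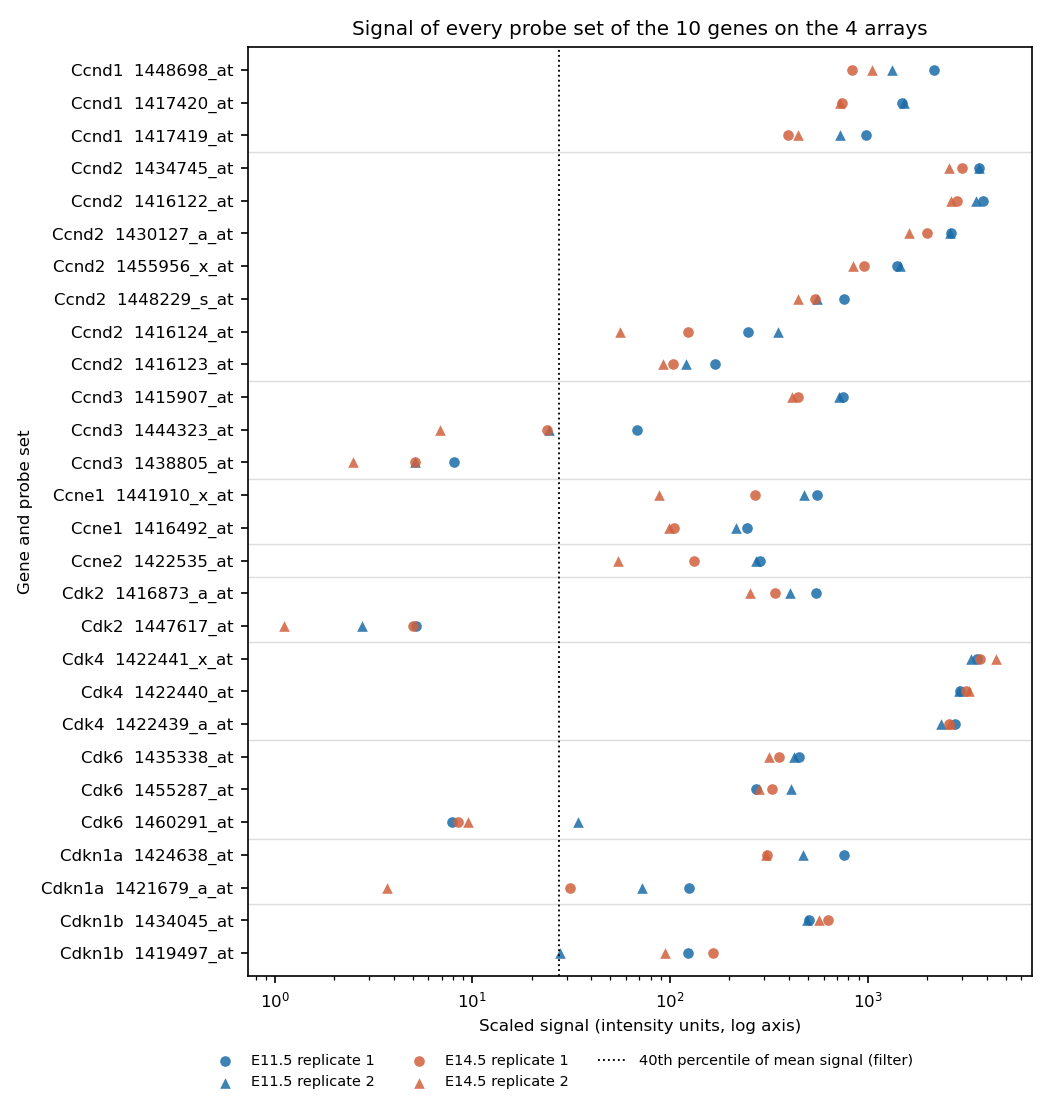
Scaled signal (horizontal, log axis, intensity units) of every probe set of the 10 genes (vertical) on each array; colour marks the age, symbol the replicate, and the dotted line the mean signal of 27.3 required for testing. E14.5 points lie to the left at the tested probe sets of the cyclins, Cdk2 and Cdkn1a and among or to the right of the E11.5 points for Cdk4 and Cdkn1b; 3 probe sets have a mean below the line and were not tested, and at these the ages overlap.

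Promoter sequences are shown for 4 of the genes as examples of letters that E2F, Myc and p53 proteins are known to recognise, since the genes of those 3 factors' pathways were measured on the same arrays. Windows of 250 bases before annotated start sites were taken from RefSeq (mouse build GRCm38.p6), which matched 7 of the 10 genes with 9 windows; Ccnd1, Ccnd2 and Ccne2 had none. Each is written 5′ to 3′ on the strand of the gene, with matches on either strand to the motif named for that window in capitals. For Ccne1 the capitals mark the E2F core TCCCGC or its complement GCGGGA (window chr7:38107491-38107740, minus strand).
Ccne1: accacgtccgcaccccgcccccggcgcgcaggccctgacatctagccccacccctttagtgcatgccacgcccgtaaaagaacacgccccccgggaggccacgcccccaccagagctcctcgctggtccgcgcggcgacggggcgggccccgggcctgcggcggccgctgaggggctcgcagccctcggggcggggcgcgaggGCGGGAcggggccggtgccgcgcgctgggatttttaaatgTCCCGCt
For Cdk2 they mark the longer E2F element TTTCCCGC, TTTGGCGC, TTTCGCGC or TTTGCCGC, here on the opposite strand, and leave other E2F cores in lower case (window chr10:128705052-128705301, minus strand).
Cdk2: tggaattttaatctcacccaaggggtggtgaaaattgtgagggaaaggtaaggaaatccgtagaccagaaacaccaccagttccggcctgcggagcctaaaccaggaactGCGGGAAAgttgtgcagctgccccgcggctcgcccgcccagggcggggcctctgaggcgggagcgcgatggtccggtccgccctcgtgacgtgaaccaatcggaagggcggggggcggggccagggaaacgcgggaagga
For Cdk4 they mark the E-box CACGTG, a word read by Myc proteins (window chr10:127063285-127063534, plus strand).
Cdk4: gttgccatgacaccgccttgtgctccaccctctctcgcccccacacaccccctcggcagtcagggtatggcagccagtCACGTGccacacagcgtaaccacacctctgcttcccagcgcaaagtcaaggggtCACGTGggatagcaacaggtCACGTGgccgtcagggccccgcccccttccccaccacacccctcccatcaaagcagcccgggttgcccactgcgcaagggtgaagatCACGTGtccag
For Cdkn1a they mark the p53 response element, searched as a pair of adjoining half-sites with at most 1 mismatch, which lies before the upstream one of 2 annotated starts that are 2790 bases apart (window chr17:29090729-29090978, plus strand).
Cdkn1a: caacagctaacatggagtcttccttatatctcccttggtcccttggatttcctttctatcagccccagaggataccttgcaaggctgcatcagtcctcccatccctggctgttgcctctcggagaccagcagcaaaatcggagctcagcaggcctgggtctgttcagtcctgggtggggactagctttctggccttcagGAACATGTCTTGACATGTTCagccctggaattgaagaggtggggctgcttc
Ccne1 held 2 E2F cores, beginning 47 and 7 bases before its start, and Cdk2 held 3, at 140, 84 and 10 bases, of which the first lies within its 1 longer element. Cdk6, whose probe sets did not pass the test, also held an E2F core, at 11 bases, and an E-box at 220 bases. The windows of Ccnd3, which fell, and of Cdkn1b held none of the motifs searched. The core occurred in 16.9% of all 32851 windows and the longer element in 1.86%. Cdk4 held 4 E-boxes, at 172, 118, 98 and 11 bases before its start; 6.02% of windows held at least 1 and 0.0213% at least 4. The element of Cdkn1a began 51 bases before the upstream start, and 0.0761% of windows held such a match. A match describes the letters of the window and is not a measured binding site.

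The D-type cyclins fell at 9 of 12 tested probe sets. Ccnd1, which encodes cyclin D1, gave scaled signals of 1496 and 1535 at E11.5 against 743 and 727 at E14.5 for probe set 1417420_at. Its arrays agreed closely within each age, and the E14.5 level was 48.5% of the E11.5 level (log2 difference -1.03 ± 0.13 SE, n = 2 arrays per group as for every difference here, adjusted p = 0.00027). Probe set 1417419_at of Ccnd1 read 977 and 726 at E11.5 and 394 and 444 at E14.5 (-0.99 ± 0.17, adjusted p = 0.0021). The brightest, 1448698_at, read 2174 and 1334 against 834 and 1052 (-0.85 ± 0.21, adjusted p = 0.015). There E11.5 replicate 1 stood 1.63-fold above replicate 2, and without it the difference was -0.50. The call of this probe set was lost with no filter (adjusted p = 0.064) and without the variance trend (adjusted p = 0.11). All 3 probe sets of Ccnd1 fell, with no overlap between the ages.

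Ccnd2 encodes cyclin D2, the D-type cyclin that is partitioned to the basal side of dividing cortical progenitors. It fell by less at its brightest probe sets. Signals at 1434745_at were 3662 and 3648 at E11.5 and 3005 and 2572 at E14.5, with E14.5 at 76.3% of E11.5 (-0.39 ± 0.12, adjusted p = 0.045). At 1416122_at they were 3828 and 3546 against 2845 and 2629.6 (-0.43 ± 0.12, adjusted p = 0.026). Both groups were tight and did not overlap at these probe sets, but the calls were close to the threshold. With no filter both were lost (adjusted p = 0.12 at 1434745_at and 0.082 at 1416122_at), as they were without the variance trend (0.19 and 0.15). The call of 1434745_at was lost on leaving out any 1 of the arrays (-0.51 to -0.28). That of 1416122_at was lost on omitting E11.5 replicate 1 (-0.37), either E14.5 array (-0.48 without replicate 1, -0.37 without replicate 2), and both calls were lost with scaling to a common median.

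Other probe sets of Ccnd2 spread over a wide range. The probe set 1430127_a_at read 2644 and 2619 at E11.5 and 1993 and 1626 at E14.5 (-0.54 ± 0.13, adjusted p = 0.014), a call lost without E14.5 replicate 2 (-0.40). The probe set 1455956_x_at read 1407 and 1467 against 965 and 840.0 (-0.67 ± 0.13, adjusted p = 0.0047). Both fell with no overlap between the ages, but neither call held without the variance trend (adjusted p = 0.11 at 1430127_a_at and 0.060 at 1455956_x_at). The suffix _x_at marks probes that may also bind other transcripts. The largest fall of the gene was at 1416124_at, with 249 and 351 at E11.5 and 124 and 56.1 at E14.5 (-1.67 ± 0.31, adjusted p = 0.0031). Here the E14.5 arrays differed 2.21-fold from each other, the most of any probe set of Ccnd2. The 2 that did not pass were 1448229_s_at, with 761 and 552 against 544 and 442 (-0.39 ± 0.18, adjusted p = 0.15), and 1416123_at, with 168 and 121 against 103 and 92.4 (-0.49 ± 0.23, adjusted p = 0.15). At both, E14.5 replicate 1 came close to E11.5 replicate 2 without crossing it, and 1448229_s_at passed without E11.5 replicate 2 (-0.62). All 7 differences of Ccnd2 were negative, from -1.67 to -0.39, and their mean as 1 gene value was -0.66 with an adjusted p of 0.0051.

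Ccnd3, which encodes cyclin D3, fell at its bright probe set 1415907_at, where signals were 755 and 713 at E11.5 and 446 and 414 at E14.5 (-0.75 ± 0.14, adjusted p = 0.0033). The level at E14.5 was 58.6% of that at E11.5, and replicates differed by at most 1.08-fold. A dim probe set, 1444323_at, read 68.3 and 24.4 at E11.5 and 24.0 and 6.89 at E14.5 (-1.03 ± 0.48, adjusted p = 0.16). It did not pass, and its replicates differed 2.80-fold at E11.5 and 3.48-fold at E14.5; without E14.5 replicate 1 it passed (-1.48). The third, 1438805_at, read 8.10, 5.11, 5.15 and 2.49 over the E11.5 and then the E14.5 arrays and was too dim to test.

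The kinases that pair with D-type cyclins did not pass the test at any tested probe set. Cdk4, one of the partner kinases, read at 1422441_x_at 3599 and 3322 at E11.5 and 3725 and 4484 at E14.5 (0.24 ± 0.13, 95% interval -0.05 to 0.53, adjusted p = 0.22). At 1422440_at the signals were 2922 and 2911 against 3135 and 3241 (0.13 ± 0.11, interval -0.13 to 0.38, adjusted p = 0.48). Both E14.5 arrays were the higher at these probe sets, by margins that did not pass the test. At 1422439_a_at they were 2755 and 2355 against 2567 and 2608, so the ages overlapped (0.02 ± 0.13, interval -0.26 to 0.30, adjusted p = 0.92). The intervals, which are not adjusted for the number of probe sets, are from the same fit. The sign of Cdk4 depended on the scaling: under quantile normalization 1422440_at gave -0.01 and 1422439_a_at -0.11, under median scaling the latter gave -0.02, and without scaling all 3 were negative (-0.75 to -0.54).

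Cdk6, the other partner kinase, read 450.0 and 425 at E11.5 and 354 and 316 at E14.5 at 1435338_at (-0.37 ± 0.15, interval -0.71 to -0.03, adjusted p = 0.11). The ages did not overlap there, but after adjustment the difference did not pass. At 1455287_at it read 272 and 411 against 329.6 and 281 (-0.13 ± 0.21, adjusted p = 0.70), with overlapping ages and a sign that turned without E11.5 replicate 2 (0.15). The third probe set of Cdk6, 1460291_at, read 7.87 and 34.4 against 8.46 and 9.50 and was below the level required for testing. The difference between the changes of the kinases and of the D-type cyclins was not itself tested. The change of Cdk6 at 1435338_at (-0.37) was close to that of Ccnd2 at 1434745_at (-0.39).

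**Figure D2:**
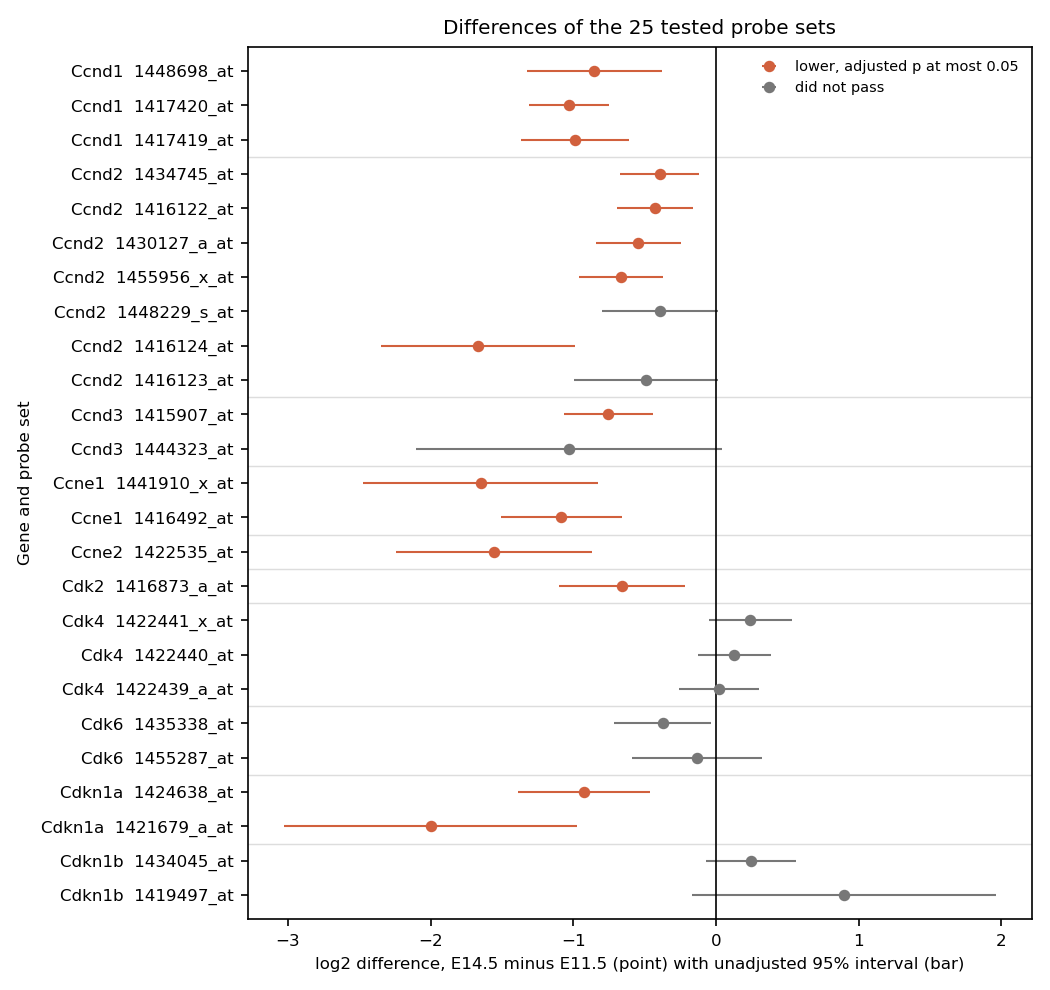
Difference in log2 signal, E14.5 minus E11.5 (points), with its unadjusted 95% interval (bars, from the limma fit with 2 arrays per group), for the 25 tested probe sets of the 10 genes. The 15 probe sets that passed as lower run from -2.0 at Cdkn1a 1421679_a_at, which reached the filter level at E11.5 only, to -0.39 at Ccnd2 1434745_at, and those of Cdk4, Cdk6 and Cdkn1b did not pass.

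The E-type cyclins fell at all 3 of their probe sets. Ccne1, encoding cyclin E1, read 245 and 216 at E11.5 and 105 and 98.4 at E14.5 at 1416492_at (-1.08 ± 0.19, adjusted p = 0.0024). The replicates differed there by at most 1.14-fold and the E14.5 level was 44.2% of the E11.5 level. At 1441910_x_at it read 554 and 479 against 269 and 87.9 (-1.65 ± 0.37, adjusted p = 0.0092). The E14.5 arrays stood 3.05-fold apart at that probe set, and without E14.5 replicate 2 the difference was -0.91. Ccne2, encoding cyclin E2, was measured by the single probe set 1422535_at, with signals of 284 and 272 at E11.5 and of 133 and 54.6 at E14.5 (-1.55 ± 0.31, adjusted p = 0.0048). Again E14.5 replicate 2 was the lower array, by 2.43-fold, and without it the difference was -1.0; each of these calls held with any 1 array left out, but that of 1441910_x_at was lost with no filter (adjusted p = 0.0505) and without the variance trend (adjusted p = 0.078).

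Cdk2, the kinase activated by E-type cyclins, read 550.5 and 404 at E11.5 and 341 and 254 at E14.5 at 1416873_a_at, a fall to 62.3% (-0.66 ± 0.20, adjusted p = 0.037). Replicates differed 1.36-fold at E11.5 and 1.34-fold at E14.5, which is more than the gap between the nearest arrays of different ages. The call was lost on omitting E11.5 replicate 1 (-0.44) or the second E14.5 array, replicate 2 (-0.45), under quantile normalization (-0.61) and under median scaling (-0.70), and at the same size with no filter (adjusted p = 0.090) and without the variance trend (adjusted p = 0.13). Its other probe set, 1447617_at, read 5.20 and 2.78 against 5.01 and 1.11 and was too dim to test.

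The inhibitors p21 and p27 differed in their readings. Cdkn1a (p21) fell at its brighter probe set. At 1424638_at it read 759 and 470.2 at E11.5 and 310.4 and 308 at E14.5 (-0.92 ± 0.21, adjusted p = 0.0096), a fall to 50.3%. The E14.5 arrays were nearly equal and the spread lay at E11.5, where replicate 1 was 1.61-fold above replicate 2; without that array the difference was -0.59 and still passed, while without the variance trend the call was lost (adjusted p = 0.073). At 1421679_a_at the signals were 124 and 72.2 against 31.3 and 3.69 (-2.0 ± 0.46, adjusted p = 0.011). Its E14.5 mean of 17.5 is under the filter level of 27.3, so it entered the test only through E11.5. This probe set did not pass with no filter (adjusted p = 0.058) or without the variance trend (adjusted p = 0.054). The lowest of these signals lies below 12.8, the constant added to every signal before taking log2, so the size depended on that constant and ran from -2.87 with an eighth of it to -1.25 with a larger one. Without E14.5 replicate 2 it was -1.29.

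Cdkn1b (p27) read 508 and 496 at E11.5 and 631 and 566 at E14.5 at 1434045_at (0.25 ± 0.14, interval -0.07 to 0.56, adjusted p = 0.25). Both E14.5 arrays were the higher, by an amount that did not pass the test and that turned to -0.51 without scaling. At 1419497_at it read 124 and 27.7 against 166 and 94.9 (0.90 ± 0.48, interval -0.17 to 1.97, adjusted p = 0.21). The E11.5 arrays stood 4.46-fold apart at that probe set and decided its call, which was passed as higher without E11.5 replicate 1 (1.78) while the difference was 0.02 without E11.5 replicate 2. Whether the change of p27 differed from that of p21 was not tested.

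Genes whose 4 log2 values, centred on their mean, lay nearest to those of the 3 called genes with the largest differences were also listed, by Euclidean distance over the 4 arrays among 12951 other genes. Nearest to Ccne1 were Dlx1 (distance 0.149) and Fst (0.195), to Ccne2 Gng4 (0.0517) and Prokr2 (0.0988), and to Cdkn1a Kctd8 (0.106) and Umps (0.113). With 4 arrays in 2 groups such a distance mainly reflects the size of the difference between ages and the gap between replicates.

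Other inhibitors of the G1 kinases did not move one way. Of 6 genes in the list of INK4 and other inhibitors 5 were tested, 2 were higher, 1 was lower and 2 did not pass (median -0.05). Over all tested genes 14.3% were higher and 13.6% lower, the shares to set beside this list and those below. Cdkn2c, which encodes the Cdk4 and Cdk6 inhibitor p18, rose from a mean of 397 to 848 (1.07 ± 0.14, adjusted p = 0.00044). Cdkn2b (p15) rose from 14.1 to 55.8 (1.37 ± 0.43, adjusted p = 0.044), a call lost without E11.5 replicate 2 (0.93) and under quantile or median scaling, and it was below the level for testing without E14.5 replicate 1, so that 1 member was then higher in each case. Its E11.5 mean is under the filter level of 27.3, so it could be tested only because it was brighter at E14.5. The list also had only 1 higher member with an eighth of the constant added before log2, with no filter and without the variance trend. Cdkn1c (p57), an imprinted relative of p21 and p27, fell from 651 to 356 (-0.85 ± 0.14, adjusted p = 0.0018). Thus within the family of p21, p27 and p57 Cdkn1a and Cdkn1c fell and Cdkn1b did not pass.

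Rb and E2F genes were mostly lower. Of 13 tested, 8 were lower, 1 was higher and 4 did not pass (median -0.71). The number higher was 0 with no filter, without the variance trend and without scaling, and 2 with a replicate block. It also changed on omitting E11.5 replicate 2 or either E14.5 array. E2f1, an activating E2F, gave 382 at E11.5 and 92.7 at E14.5 as group means (-1.93 ± 0.22, adjusted p = 0.00018). E2f7 (-1.23 ± 0.16) and E2f8 (-0.86 ± 0.16), which repress E2F targets, and the activator E2f2 (-1.11 ± 0.26) also fell. Rb1 did not pass, with means of 714 and 677 (-0.08 ± 0.13). Its relative Rbl1 fell (-0.71 ± 0.16, adjusted p = 0.010), a call lost without E14.5 replicate 2 (-0.58).

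Replication genes under E2F control fell at 16 of 18 tested members, with none higher (median -1.02), among them the licensing factor Cdc6 (-2.17 ± 0.20), Cdt1 (-1.37 ± 0.17), Rrm2 (-1.31 ± 0.17) and Mcm3 (-1.24 ± 0.17). Genes of S phase to mitosis fell at 8 of 16 members, with none higher (median -0.44), including Mybl2 (-1.14 ± 0.20), Bub1 (-1.02 ± 0.15), the S-phase cyclin Ccna2 (-1.01 ± 0.15) and Aurka (-0.90 ± 0.14). Mki67, a marker of cycling cells, did not pass, with means of 2037 and 1897 (-0.10 ± 0.12, adjusted p = 0.60). The difference between the change of Mki67 and that of the cyclins was not tested.

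Among genes that control turnover of G1 proteins and activation of their kinases, 6 of 19 tested were lower, 1 was higher and 12 did not pass (median -0.24). Skp2, the subunit that directs p27 to degradation, fell from 759 to 233 (-1.65 ± 0.18, adjusted p = 0.00014), and 5 of its 6 tested probe sets were lower while the other did not pass. Its scaffold Cul1 (-0.84 ± 0.14) and Cdc25a, the phosphatase that activates Cdk2 (-1.27 ± 0.15), fell as well. Foxo3, a transcription factor that can raise p27, rose from 170.2 to 337 (0.94 ± 0.17). Without E14.5 replicate 1 the difference at this probe set of Foxo3 was 0.97, but the rise was not counted by the brightest probe set of each gene. Only 4 members were lower with no filter and 4 without the variance trend, and the number lower also dropped without E14.5 replicate 2.

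Mitogen and Myc genes were 3 higher, 5 lower and 10 not passing of 18 (median -0.18), beside 14.3% of all genes called higher and 13.6% called lower. Mycn, the Myc family member of early neural progenitors, fell from 474 to 129 (-1.86 ± 0.28, adjusted p = 0.0010), while Myc rose from 255 to 657 (1.33 ± 0.17, adjusted p = 0.00032); Myc was named after its value was seen. The E-box word in the window of Cdk4 is shared by both proteins. The hedgehog effectors Gli3 (-2.40 ± 0.15) and Gli2 (-1.35 ± 0.16) fell, and the EGF receptor gene Egfr rose by 4.53 ± 0.14.

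Of 12 tested targets of p53 other than Cdkn1a, 2 were higher, 2 lower and 8 did not pass (median -0.12), near the 27.8% of all genes that passed, with 4 lower without E11.5 replicate 2. Mdm2, the ubiquitin ligase of p53, fell (-0.59 ± 0.14, adjusted p = 0.011), as did Aen (-0.73 ± 0.16), whereas Btg2 (1.05 ± 0.16) and Sesn1 (0.87 ± 0.15) rose. In the list of other cyclins and CDKs, 3 of 17 tested members fell and 14 did not pass (median -0.27), beside 13.6% of all genes called lower. Those that fell were Cdk8 (-0.74 ± 0.13), Ccnc (-0.60 ± 0.18) and Cdk5r1 (-0.98 ± 0.16), which encodes an activator of Cdk5 and is neither a cyclin nor a CDK. The call of Ccnc was lost without either E11.5 array or without E14.5 replicate 2 (-0.61 to -0.52), and 2 members were higher without E11.5 replicate 1. Probe sets of 1 gene disagreed in size for several of these genes, by over 1 log2 unit for Skp2, Egfr, Mcm3 and Aen. None of the genes named from these lists had probe sets called in opposite directions, but several passed at only some tested probe sets. Sesn1 and Ccnc passed at 1 of 3, and Rbl1, E2f2, E2f8, Foxo3, Mycn, Ccna2, Bub1 and Mybl2 at 1 of 2. Mcm3 passed at 3 of 5, Egfr at 4 of 5 and Aen at 3 of 4. Mdm2 passed at 2 of 3, with the other at 0.015.

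**Figure D3:**
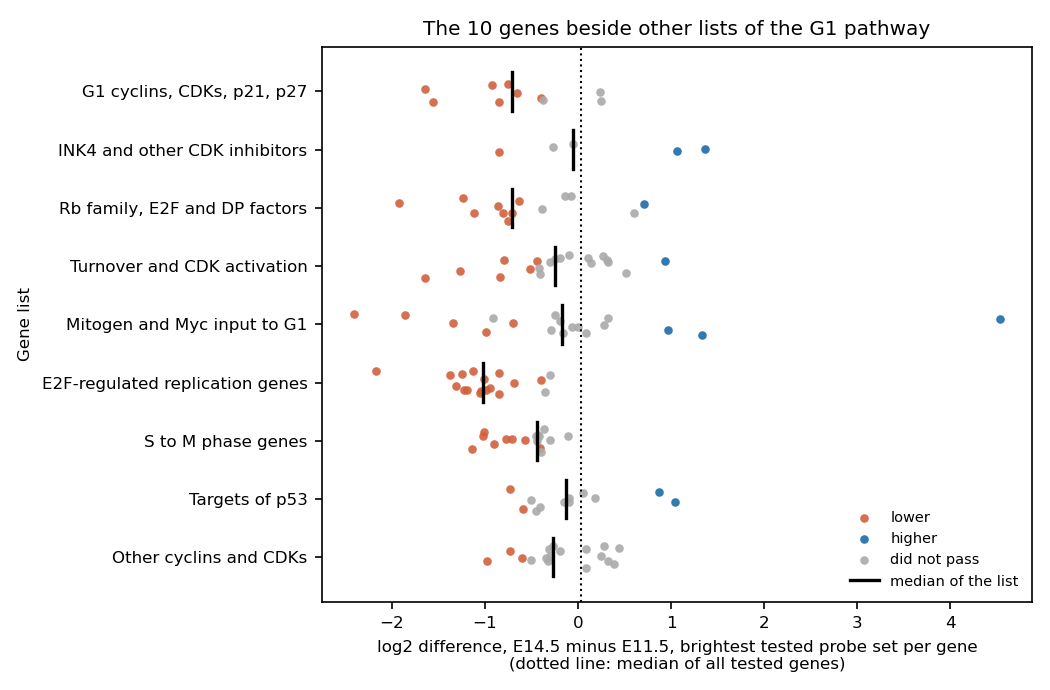
Difference in log2 signal, E14.5 minus E11.5 (horizontal), of each tested gene by its brightest tested probe set, for the 10 genes and the 8 other lists of the pathway (rows; vertical scatter within a row only separates points). Bars are list medians and the dotted line is the median of all genes at 0.03; the 10 genes (median -0.71) and the replication genes (median -1.02) lie mostly to its left.

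Marker genes of several cell types differed between the ages, and their values stand beside every result above. Of 10 progenitor markers, the labelled cell type, all were tested, 4 were higher (Sox2, Hes5, Fabp7 and Sox9), 1 was lower (Pax6, from 507 to 283) and 5 did not pass (Nes, Vim, Hes1, Prom1 and Msi1), with summed signals of 20564 to 22305 at E11.5 and 29329 to 31195 at E14.5. Neuron markers were lower for 9 of 10 members, with sums of 15076 to 15596 at E11.5 and 5222 to 5373 at E14.5. Higher at E14.5 were 6 of 6 oligodendrocyte precursor markers (622 to 859.5 against 16720.0 to 19049), 8 of 8 astrocyte markers (3402 to 4242 against 15346 to 19526) and 6 of 7 tested microglia and macrophage markers (172 to 218 against 1343 to 1389.7). Endothelial and pericyte markers had 1 of 3 tested members higher and erythroid markers 2 of 2 lower, the latter with sums of 353 to 772 against 18.1 to 24.2. Of the markers called higher, 2 oligodendrocyte precursor, 3 astrocyte, 4 microglia and macrophage and 1 endothelial gene were under the filter level at E11.5, and both erythroid genes were under it at E14.5, so these could be tested only in the direction in which they were called. The part of these cells in the G1 differences was not tested, and in RNA from whole cultures fewer cells of a type and less RNA per cell cannot be told apart.

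**Figure D4:**
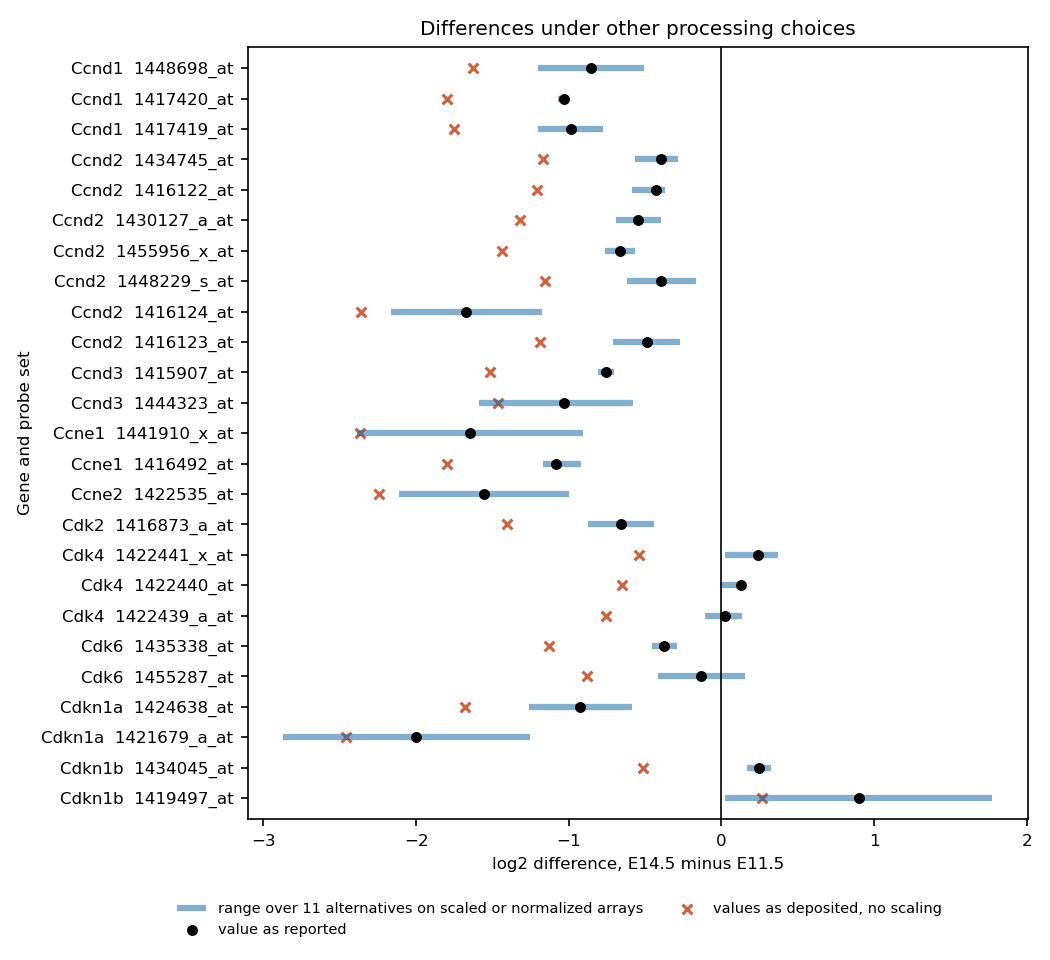
Difference in log2 signal, E14.5 minus E11.5 (horizontal), for the 25 tested probe sets as reported (black), its range over 11 alternatives on scaled or normalized arrays (10 for Ccnd3 1444323_at; blue) and without any scaling (crosses). Blue ranges of the cyclins, Cdk2 and Cdkn1a stay below 0; without scaling all differences but that of Cdkn1b 1419497_at are below 0, as is the median of all probe sets at -0.71.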

How the data were processed

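Total RNA (5 µg per sample) was labelled with biotin and hybridised to 4 Affymetrix arrays, 2 per group, grouped and numbered by the sample titles. Each deposited value is the intensity of 1 probe set on 1 array, not on a log scale, made by the authors with GCOS per the submitters' processing notes, with version and settings not given in the sources used here. Mean intensity after trimming 2% at each end ran from 103 to 252 (2.43-fold), so each array was multiplied by 1 factor (0.691 to 1.68) to a common value of 174. Of 45101 probe sets, 64 controls were set aside; of the rest 34945 had 1 gene, 932 several and 9160 none. Those whose scaled signal averaged 27.3 (the 40th percentile) or more were tested, 27022 in all, as log2(signal + 12.8), the constant being the 25th percentile; log2 differences of dim probe sets are understated. The test was limma 3.58.1 in R 4.3.3 (lmFit, eBayes with a variance trend, 2 residual and 7.99 prior degrees of freedom), two-sided. With 2 arrays per group an exact permutation test cannot go below 0.33. On simulated data for E14.5 minus E11.5 over 27022 probe sets, 100 were changed by 1 log2 unit and 100 by 2. Of these 57% and 91% were recovered, with 5 false calls among 153. In the data 6408 probe sets passed, so the recovered shares need not hold there. P-values rest on the spread among these 4 arrays alone, and that spread may be technical. Gene lists came from textbook knowledge, and the members and lists were chosen with earlier results of these data known. From each pathway list the text names up to 4 called genes by size, plus Cdkn1c, Rb1, Rbl1, E2f1, Skp2, Mycn, Mki67 and Mdm2. A gene is represented by its brightest tested probe set. Log2 signals correlated across probe sets at 0.975 and 0.969 within the ages and at 0.885 to 0.909 between them. Alternatives covered scaling, the constant, the filter, the variance trend, probe set choice, a replicate block and leaving out each array.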

Additional observations from a re-analysis of the deposited data

How the results depend on the processing

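The 15 member probe sets called lower kept a negative sign under the alternatives that were run. Without scaling the median of all probe sets shifted by -0.70 and 92.5% of calls were lower (400 higher, 4929 lower), against 53% as reported; the members then had 17 lower probe sets, and signs turned for Cdk4 (-0.54 at 1422441_x_at, -0.65 at 1422440_at, -0.75 at 1422439_a_at) and Cdkn1b 1434045_at (-0.51). Signs of Cdk4 also turned under quantile normalization (-0.011 and -0.11 at the latter 2) and, for 1422439_a_at, under median scaling (-0.020) and without E11.5 replicate 2 (-0.090; range over omitted arrays -0.090 to 0.14); that of Cdk6 1455287_at turned without E11.5 replicate 2 (range -0.42 to 0.15). Without scaling the rises of Cdkn2b, Cdkn2c, Foxo3, Myc, Sesn1 and Btg2 no longer passed. Without the variance trend 1919 probe sets were higher and 2097 lower, with 6 lower probe sets and 2 lower genes among the members. With no filter, which tested 45037 probe sets, the members had 9 and 3. Leaving out 1 array gave 2268 to 3176 higher and 2733 to 3485 lower probe sets, 0 to 1 higher and 11 to 15 lower member probe sets, and 5 to 7 lower member genes; the array left alone in its group is then assumed to vary like the others. The labels link same-numbered arrays by a number only, and whether they were handled together is not known. Over all tested probe sets their deviations from the group means correlated at r = 0.0041. With the number as a replicate block 3312 probe sets were higher and 3861 lower, and the members had 1 higher (Cdkn1b 1419497_at) and 14 lower. With probe sets averaged, or without those ending in _s_at or _x_at, 7 member genes were lower. The number of arrays and the signal over background limit precision, most for the dim probe sets.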
